A study of Mus musculus with 24 samples.

Results

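Embryoid bodies at day 2 that had lost Eed were compared, across all genes, with day 2 embryoid bodies of the parental conditional line. The comparison took the 2 libraries titled as KO at day 2 and the 2 titled as f/f at day 2, which are 4 of the 24 RNA sequencing libraries of the series. KO cells came from C57BL/6 mouse embryonic stem cells with a conditional Eed allele, in which the gene was deleted with 800 nM 4-hydroxytamoxifen. The f/f cells were the same conditional line without tamoxifen, labelled wild type. Both were maintained in serum and LIF on a layer of embryonic fibroblasts before embryoid bodies were formed. The series also holds cells in a state labelled 3i, day 1 embryoid bodies, and 2 rescue lines, KO cells with wild-type EED (KO+WT) and KO cells with a form named N-KR (KO+N-KR) that the labels do not explain. Because f/f alone was untreated, the effects of genotype, tamoxifen and line history cannot be told apart between KO and f/f.

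EED is a core subunit of Polycomb repressive complex 2 (PRC2), which also contains SUZ12, EZH1 or EZH2 as the histone methyltransferase, and RBBP4 or RBBP7. PRC2 methylates a lysine in the tail of histone H3, and EED binds the finished mark and stimulates the enzyme. In embryonic stem cells the mark covers CpG-rich promoters of many developmental regulators. When stem cells aggregate into embryoid bodies they leave the naive state, pass through a formative epiblast-like state and start towards the germ layers. Mouse cells without PRC2 are known to self-renew but to differentiate poorly.

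The 4 libraries held 12702480 and 8995902 counts in KO and 12562736 and 9592453 counts in f/f, within a range of 7553683 to 14426034 over the series. Libraries of the same group were close to repeated draws from 1 sample. The variance of their count differences was 1.12 times that of binomial sampling in KO and 1.18 times in f/f, against 9.91 and 7.67 times between KO and f/f libraries with the same number. The labels do not describe them as separate cultures. Counts were summed to 21698382 counts in KO and 22155189 counts in f/f, and each genotype counts as 1 sample with no biological replicate. Levels are in CPM, the counts of a gene relative to the library total with TMM scaling, and differences are log2 ratios of KO over f/f with a prior count of 2. A gene was called by size, at 2-fold or more where the higher of the 2 samples had 5 CPM or more. Intervals in brackets are exact 95% intervals that cover counting error only.

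Eed itself stood at 102 and 102 CPM in the KO libraries, against 131 and 130 CPM in the f/f libraries, a log2 ratio of -0.36 (interval -0.44 to -0.28). The labels do not state which part of the gene is deleted, and reads were counted over the gene, so its level does not test the deletion. The other core subunits were also somewhat lower in KO. Their log2 ratios were -0.39 for the methyltransferase gene Ezh1, -0.35 for Rbbp7, -0.30 for Rbbp4, -0.17 for Suz12 and -0.13 for the methyltransferase gene Ezh2. All 6 core genes were thus below f/f, with a median of -0.32, where the median over the 13405 genes with a mean of at least 1 CPM was -0.02. None of the 6 reached 2-fold. Skp1a, the SCF ubiquitin ligase subunit named in the series title, differed by -0.03.

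The differences at day 2 were mostly increases in KO. Of 10985 genes with at least 5 CPM in either sample, 198 were higher in KO by size, which is 1.8%, and 18 were lower, which is 0.164%. The same rule gave 29 higher genes (0.266%) and 26 lower genes (0.239%) in 3i, and 38 higher (0.359%) and 20 lower (0.189%) at day 1. Most of the 198 differences were modest: 157 lay between 2-fold and 3-fold and 15 reached 4-fold. Of the 198, 93 (47%) were under 10 CPM in KO and 15 were at 50 CPM or more. In 197 of the 198, both KO libraries lay above both f/f libraries, and in all 18 lower genes both lay below. BC021614 was the exception, with 9.26 and 1.62 CPM in the KO libraries against 2.11 and 1.38 CPM in the f/f libraries. The same libraries chose these genes, so this lack of overlap was favoured by the selection. It was not counted over all genes. Over all 13405 genes with a mean of at least 1 CPM the ratio was positive for 6328 and negative for 7077. At the edge of the rule, Chst10 lay just inside at 13.4 CPM in KO and 6.63 CPM in f/f. Igfbpl1 lay just outside at 12.5 CPM in KO and 6.22 CPM in f/f. On the lower side, Dll1 lay just inside at 12.9 CPM in KO and 26.3 CPM in f/f, and Insm1 just outside at 5.15 CPM in KO and 10.3 CPM in f/f.

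**Figure D1:**
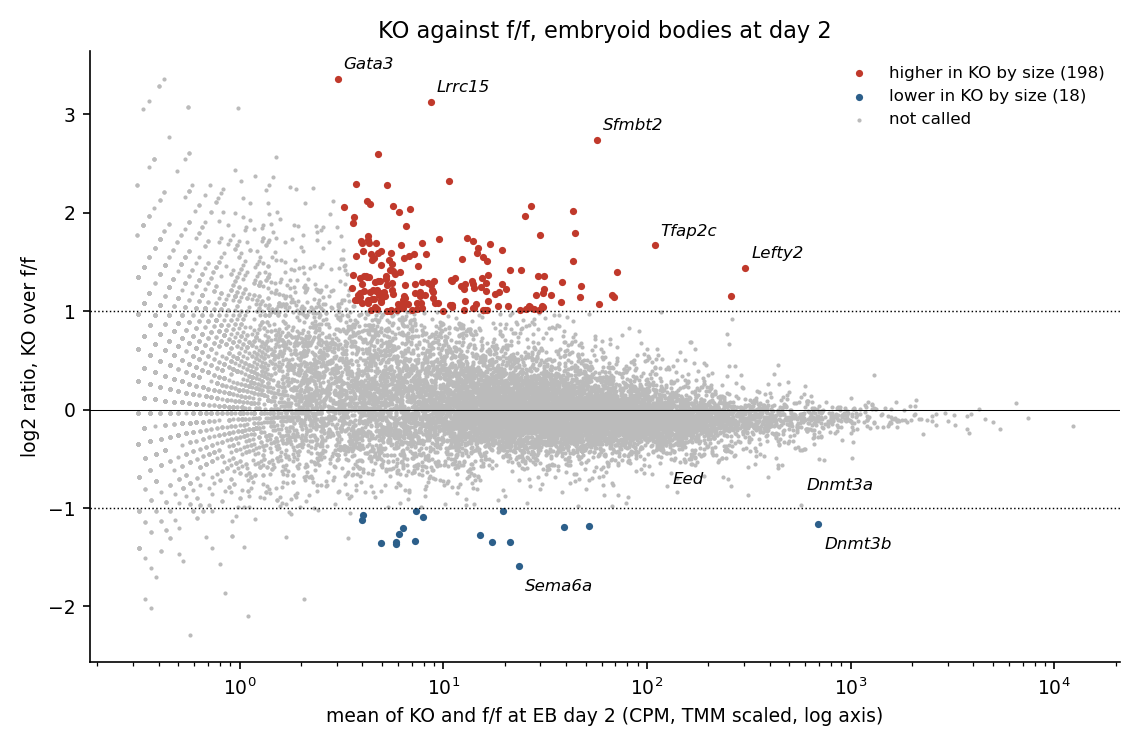
Each point is a gene, with the mean of its KO and f/f levels at day 2 in CPM on a log axis and the log2 ratio of KO over f/f on the other axis. Dotted lines mark 2-fold, and the 198 genes called higher outnumber the 18 called lower.

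A test between libraries (edgeR quasi-likelihood with Benjamini-Hochberg adjustment at 0.05, 14619 genes, all 24 libraries as 12 groups) found 2648 genes higher (18.1%) and 3073 lower (21%) in the KO libraries. It compares these RNA samples and not the genotypes, since its coefficient of variation between libraries was 0.988%. All 198 higher and all 18 lower genes were among its calls, which rest on the same libraries that chose them. Fewer cells of a type and less RNA per cell cannot be told apart in these bulk samples, here or below.

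Gata3, which encodes a transcription factor of trophoblast and other lineages, had the highest ratio among the called genes. It stood at 5.36 and 5.94 CPM in the KO libraries, against 0.568 and 0.319 CPM in the f/f libraries, a log2 ratio of 3.36 (2.68 to 4.70). It was nearly silent in f/f, with 125 reads in KO and 10 reads in f/f. Lrrc15, which encodes a membrane protein with leucine-rich repeats, had 16.2 and 14.9 CPM in the KO libraries, against 1.87 and 1.49 CPM in the f/f libraries, a log2 ratio of 3.13 (2.71 to 3.73). Sfmbt2 encodes a Polycomb group protein with MBT repeats and is imprinted in mouse extraembryonic tissue. It had 96.1 and 102 CPM in the KO libraries, against 16.0 and 12.9 CPM in the f/f libraries, a log2 ratio of 2.74 (2.58 to 2.92). For each of these genes the 2 KO libraries lay close together and far above both f/f libraries, and the same libraries chose them.

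Promoter sequences are shown for these 3 genes, which had the highest ratios, and for Dnmt3b, a DNA methyltransferase gene among those called lower. They come from RefSeq (GRCm38.p6) and run from 250 bases before to 50 bases after the start, 5′ to 3′ on the gene's strand, with CG dinucleotides in capitals. CG reads the same on both strands. The 4 windows held 22, 16, 16 and 30 CG, where the median over 32851 promoters of 300 bases was 7 (quartiles 3 and 20) and 94.6% held at least 1. Over the promoters matched to genes at 5 CPM or more (71.6% of those genes matched) the median was 23 (quartiles 16 and 31), so these windows are not unusual among expressed genes. The windows are Gata3 at chr2:9878551-9878850 on the minus strand, Lrrc15 at chr16:30283205-30283504 on the minus strand, Sfmbt2 at chr2:10372186-10372485 on the plus strand and Dnmt3b at chr2:153649199-153649498 on the plus strand. For Sfmbt2, which has 2 starts listed, the window with more CG is given. These letters describe the promoters, and the counts carry no measurement of chromatin there.
Gata3: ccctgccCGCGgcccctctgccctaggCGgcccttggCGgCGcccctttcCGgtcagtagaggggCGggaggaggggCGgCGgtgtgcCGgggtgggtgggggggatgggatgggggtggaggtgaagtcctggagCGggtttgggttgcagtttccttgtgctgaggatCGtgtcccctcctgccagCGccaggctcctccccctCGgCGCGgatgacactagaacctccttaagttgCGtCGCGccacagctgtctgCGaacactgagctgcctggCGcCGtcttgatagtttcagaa
Lrrc15: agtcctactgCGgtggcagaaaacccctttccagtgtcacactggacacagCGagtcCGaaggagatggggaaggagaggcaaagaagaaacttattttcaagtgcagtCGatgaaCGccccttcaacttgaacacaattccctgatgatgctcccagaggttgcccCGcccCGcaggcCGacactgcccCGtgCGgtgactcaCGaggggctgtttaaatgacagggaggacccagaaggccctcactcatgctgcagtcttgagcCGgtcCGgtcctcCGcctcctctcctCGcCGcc
Sfmbt2: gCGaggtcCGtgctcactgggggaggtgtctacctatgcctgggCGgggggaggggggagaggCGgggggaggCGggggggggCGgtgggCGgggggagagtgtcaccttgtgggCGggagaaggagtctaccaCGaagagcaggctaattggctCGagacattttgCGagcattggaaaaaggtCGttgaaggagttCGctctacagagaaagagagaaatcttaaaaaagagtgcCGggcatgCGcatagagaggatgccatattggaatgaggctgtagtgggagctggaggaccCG
Dnmt3b: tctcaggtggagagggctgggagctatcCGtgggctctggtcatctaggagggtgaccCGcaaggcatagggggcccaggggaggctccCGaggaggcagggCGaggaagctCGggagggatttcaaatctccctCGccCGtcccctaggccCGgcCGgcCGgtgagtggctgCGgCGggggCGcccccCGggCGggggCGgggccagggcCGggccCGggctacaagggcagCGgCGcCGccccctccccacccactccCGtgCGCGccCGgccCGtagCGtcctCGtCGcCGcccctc

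The next genes by ratio covered membrane, matrix and signalling proteins. Car12, a membrane-bound carbonic anhydrase, had 8.19 and 8.43 CPM in KO libraries, against 1.30 and 1.28 CPM in f/f libraries (log2 ratio 2.60). Nrk, a kinase gene expressed in the placenta, had 17.8 and 18.2 CPM in KO libraries, against 3.65 and 3.30 CPM in f/f libraries (2.33). Col13a1, a transmembrane collagen, had 6.35 and 6.05 CPM in KO libraries, against 1.30 and 1.06 CPM in f/f libraries (2.29). In all of these the f/f level was low and the KO libraries lay within 1 CPM of each other. Gjb5, a connexin gene, had 9.11 and 8.54 CPM in KO libraries, against 1.62 and 1.91 CPM in f/f libraries (2.28). Sfn, the 14-3-3 protein of epithelia, had 68.3 and 70.8 CPM in KO libraries, against 17.1 and 16.9 CPM in f/f libraries (2.02). Plagl1, an imprinted gene for a zinc finger protein, had 8.73 and 9.84 CPM in KO libraries, against 1.87 and 2.45 CPM in f/f libraries (2.07). The zinc finger gene Zfp521 (2.12), the lipid synthesis acyltransferase gene Agpat9 (2.09), AU015836 (2.07), Stard8 (2.04) and the transglutaminase gene Tgm2 (2.01) also reached 4-fold. One predicted transcript, 6030419C18Rik, made up the rest of the 15, at 2.06.

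Among the 18 lower genes, Sema6a, a transmembrane semaphorin, had the lowest ratio. It had 11.8 and 11.6 CPM in the KO libraries, against 34.4 and 36.8 CPM in the f/f libraries, a log2 ratio of -1.59 (-1.81 to -1.39). Cxcl12, a chemokine, had 10.9 and 13.3 CPM in KO libraries, against 31.0 and 29.8 CPM in f/f libraries (-1.35). Gadd45g, a stress- and differentiation-responsive gene, had 9.57 and 9.94 CPM in KO libraries, against 26.4 and 22.9 CPM in f/f libraries (-1.35). No lower gene reached 4-fold, and 17 of the 18 lay between 2-fold and 3-fold. Nt5e, an ecto-nucleotidase that makes adenosine, had 8.04 and 9.94 CPM in KO libraries, against 19.5 and 23.9 CPM in f/f libraries (-1.27). The others of the lowest 10 were under 11 CPM in f/f: Lrmp (-1.37), the transcriptional repressor gene Bhlhe41 (-1.36), the sodium channel subunit gene Scn2b (-1.35), the forkhead gene Foxr2 (-1.34), Armcx6 (-1.26) and the cyclin gene Ccno (-1.20). Without the first library of each genotype Ccno was at -0.69, below the 2-fold rule.

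**Figure D2:**
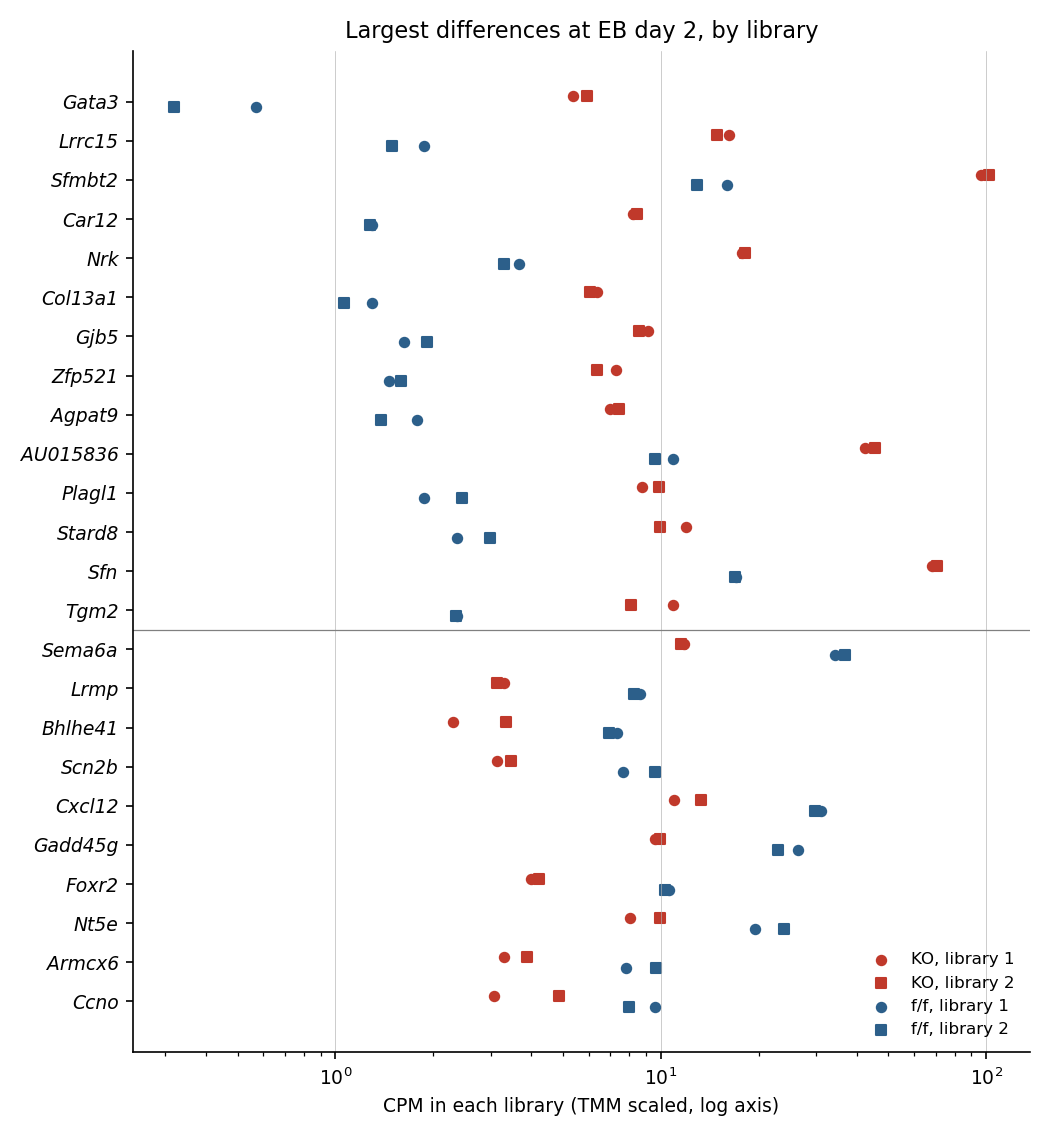
CPM in each of the 4 libraries on a log axis for the genes with the highest and lowest ratios, KO in red and f/f in blue, with circles for library 1 and squares for library 2. In every gene drawn both KO libraries lie on the same side of both f/f libraries, which chose the genes together with them.

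Genes of the trophoblast, the outer lineage of the blastocyst that forms the placenta, were higher in KO as a group. Of 18 listed genes 12 had a mean of at least 1 CPM, 11 of these were above f/f, and 4 were called higher against the 1.8% of all genes. Of all 13405 genes with such a mean, 47.2% were above f/f. The median log2 ratio was 1.06. Besides Gata3, Tfap2c, a transcription factor gene of trophoblast and germ cells, had 168 and 163 CPM in KO libraries, against 52.1 and 52.3 CPM in f/f libraries, a log2 ratio of 1.67 (1.58 to 1.77). The keratin genes Krt19 and Krt7 were the other called members. Krt19 had 9.80 and 9.19 CPM in KO libraries, against 2.52 and 4.15 CPM in f/f libraries (1.54). Krt7 had 8.57 and 7.78 CPM in KO libraries, against 2.92 and 3.19 CPM in f/f libraries (1.41). Gata2 had a ratio of 2.01 but only 2.51 CPM in KO and 0.553 CPM in f/f, under the level the rule needs. Other members did not reach 2-fold: Eomes, a trophoblast and streak factor, was at 18.0 CPM in KO and 12.8 CPM in f/f, and Peg10, a placental gene of retrotransposon origin, differed by -0.08.

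Of 23 keratin and epithelial junction genes at 1 CPM or more, 4 were called higher: Krt19 and Krt7 from the trophoblast list, Dsp and Grhl3. Of all genes 1.8% were called higher. However, the list's median was 0.13, near that of all genes. Dsp, the desmosomal plaque gene, had 38.7 and 42.3 CPM in KO libraries, against 9.42 and 11.2 CPM in f/f libraries (1.97). Grhl3, an epithelial transcription factor gene, had 19.8 and 19.5 CPM in KO libraries, against 7.88 and 7.98 CPM in f/f libraries (1.30). Of the keratin family itself 9 of 47 genes reached 1 CPM, 8 were above f/f and 3 were called, with Krt17 at 1.61. Perp, a desmosomal gene that p53 also activates, had 28.5 and 30.4 CPM in KO libraries, against 9.18 and 9.89 CPM in f/f libraries (1.62). Claudins had a median of 0.08 over 8 genes and cadherins one of -0.02 over 9 genes, which changes sign with scaling by library totals, and none of either was called.

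Developmental regulators that PRC2 is known to cover were mostly higher in KO or nearly silent. Of 99 such genes outside the Hox clusters, 58 were under 1 CPM in the mean of KO and f/f. Of the 41 above it, 32 were higher in KO, 7 were called higher and none lower, with a median log2 ratio of 0.52. Over all genes these shares were 47.2% above f/f, 1.8% called higher and 0.164% called lower. Meis2, a homeobox gene, had 8.04 and 8.54 CPM in KO libraries, against 3.25 and 2.45 CPM in f/f libraries (1.48). Irx3, a homeobox gene of neural and limb patterning, had 6.05 and 6.48 CPM in KO libraries, against 2.60 and 2.13 CPM in f/f libraries (1.35). Prdm16, a zinc finger regulator of brown fat and blood stem cells, had 11.5 and 10.8 CPM in KO libraries, against 4.14 and 5.00 CPM in f/f libraries (1.29). The level of these regulators stayed low in both genotypes. Gata4, at 1.01, was at the limit of the rule, and was at 0.97 without the first libraries and 0.99 with a prior count of 5. Several members had large ratios at levels too low for the rule, such as Msx2 (2.64 CPM in KO and 0.368 CPM in f/f), Sox7 (3.85 CPM in KO and 0.737 CPM in f/f) and Meis1 (4.75 CPM in KO and 1.24 CPM in f/f), named after their values were seen. The members furthest below f/f were Wt1 at -0.96, the neural gene Sox1 at -0.74 and Msx1 at -0.71. Weak genes in general leaned upward: with a minimum of 1 CPM, 560 of all genes were called higher and 38 lower. Marker lists of other cells also had medians above 0, from 0.29 (endothelium and blood) to 0.74 (neurons). Whether these regulators or the trophoblast genes differ from other genes of their level was not tested.

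The Hox genes remained almost silent. Of 39 in the table, 4 had a mean of at least 1 CPM and none reached 5 CPM. Summed over all 39, they came to 25.4 and 25.4 CPM in the KO libraries, against 14.8 and 13.5 CPM in the f/f libraries. Libraries of a group are close to repeated draws from 1 sample, so this gap was not tested between genotypes. In the GATA family all 4 genes at 1 CPM or more were above f/f, with a median of 1.51. Gata3 and Gata4 were called higher, where 1.8% of all genes were. The NK homeobox genes (5 at 1 CPM or more, median 0.88), T-box genes (6, median 0.74) and Irx and Meis genes (10, median 0.31) also had medians above 0. Medians were near 0 for forkhead genes (25 genes, -0.02), Sox genes (13, -0.04) and Pax genes (2, -0.06), whose signs change with scaling by library totals, and for LIM homeobox genes (3, 0.01). The Sox genes divided into 6 above and 7 below f/f, and the forkhead genes into 12 above and 13 below.

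Markers of the germ layers were weak. Mesoderm genes had a median of 0.93 over 11 of 26 genes, with 9 above f/f, and Gata4 was the one called at 9.49 and 9.40 CPM in KO libraries, against 4.63 and 4.68 CPM in f/f libraries. Primitive streak genes had 5 of 17 at 1 CPM or more, 4 of them above f/f, none called, and a median of 0.48. Primitive and visceral endoderm genes had a median of 0.29 over 22 genes with 17 above f/f, and neuroectoderm genes a median of -0.15 over 11 genes with 4 above f/f. In none of these 4 lists did all members differ in the same direction.

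Genes of naive pluripotency were higher in KO and genes of the formative epiblast lower. Of 18 naive genes at 1 CPM or more, 14 were above f/f, 4 were called higher and none lower, with a median of 0.43. Over all genes 47.2% were above f/f and 1.8% were called higher. Prdm14, a regulator of naive pluripotency and germ cells that keeps de novo methyltransferases low, had 21.0 and 24.5 CPM in KO libraries, against 6.82 and 7.55 CPM in f/f libraries, a log2 ratio of 1.64 (1.39 to 1.93). Tcl1, a co-activator of AKT, had 35.4 and 34.3 CPM in KO libraries, against 13.9 and 11.9 CPM in f/f libraries (1.42). Dppa3, also called Stella, had 22.0 and 23.6 CPM in KO libraries, against 10.4 and 10.6 CPM in f/f libraries (1.10). The nuclear receptor gene Nr5a2 had 41.5 and 41.0 CPM in KO libraries, against 20.1 and 19.7 CPM in f/f libraries (1.05). In each of these genes both KO libraries lay above both f/f libraries, which the call by size on the same libraries favoured. Tfcp2l1 (0.83), Nanog (0.61) and Esrrb (0.27) were above f/f without reaching 2-fold, and Fgf4 was below it at -0.42. The shared core of pluripotency differed little: Pou5f1 was at -0.12 and Sox2 at 0.06, and the list of 13 had a median of -0.10 with none called.

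Among 20 formative genes 18 were below f/f, 2 were called lower and none higher, with a median of -0.48. Over all genes 47.2% were above f/f and 0.164% were called lower. Dnmt3b, a de novo DNA methyltransferase gene that formative cells switch on, had 432 and 422 CPM in KO libraries, against 956 and 958 CPM in f/f libraries, a log2 ratio of -1.16 (-1.20 to -1.13). Its partner gene Dnmt3a had 385 and 384 CPM in KO libraries, against 759 and 740 CPM in f/f libraries, and at -0.97 was just short of 2-fold. Enpp2, which encodes the lysophospholipase autotaxin, had 31.2 and 32.2 CPM in KO libraries, against 69.4 and 75.1 CPM in f/f libraries (-1.18). Pim2 (-0.97), Lef1 (-0.91), Vrtn (-0.84), Pou3f1 (-0.74) and Otx2 (-0.63) were lower without reaching 2-fold, whereas Fgf5, the classical epiblast marker, was at 23.9 CPM in KO and 28.2 CPM in f/f (-0.24). Fgf15 and Car4 were the members not below f/f, at 0.32 and 0.05. The list of 12 DNA methylation genes, which holds Dnmt3a and Dnmt3b, had 2 called lower, Dnmt3b and Gadd45g. Its median of -0.07 changes sign with scaling by library totals. Dnmt3l, another member, was not lower, with 417 and 418 CPM in KO libraries, against 408 and 403 CPM in f/f libraries. Germline genes were mostly above f/f, 17 of 19, with a median of 0.50. Of them 1 was called higher, where 1.8% of all genes were. The called member was Stra8, a retinoic acid target that prepares germ cells for meiosis, at 7.19 and 6.38 CPM in KO libraries, against 2.27 and 2.34 CPM in f/f libraries (1.54).

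**Figure D3:**
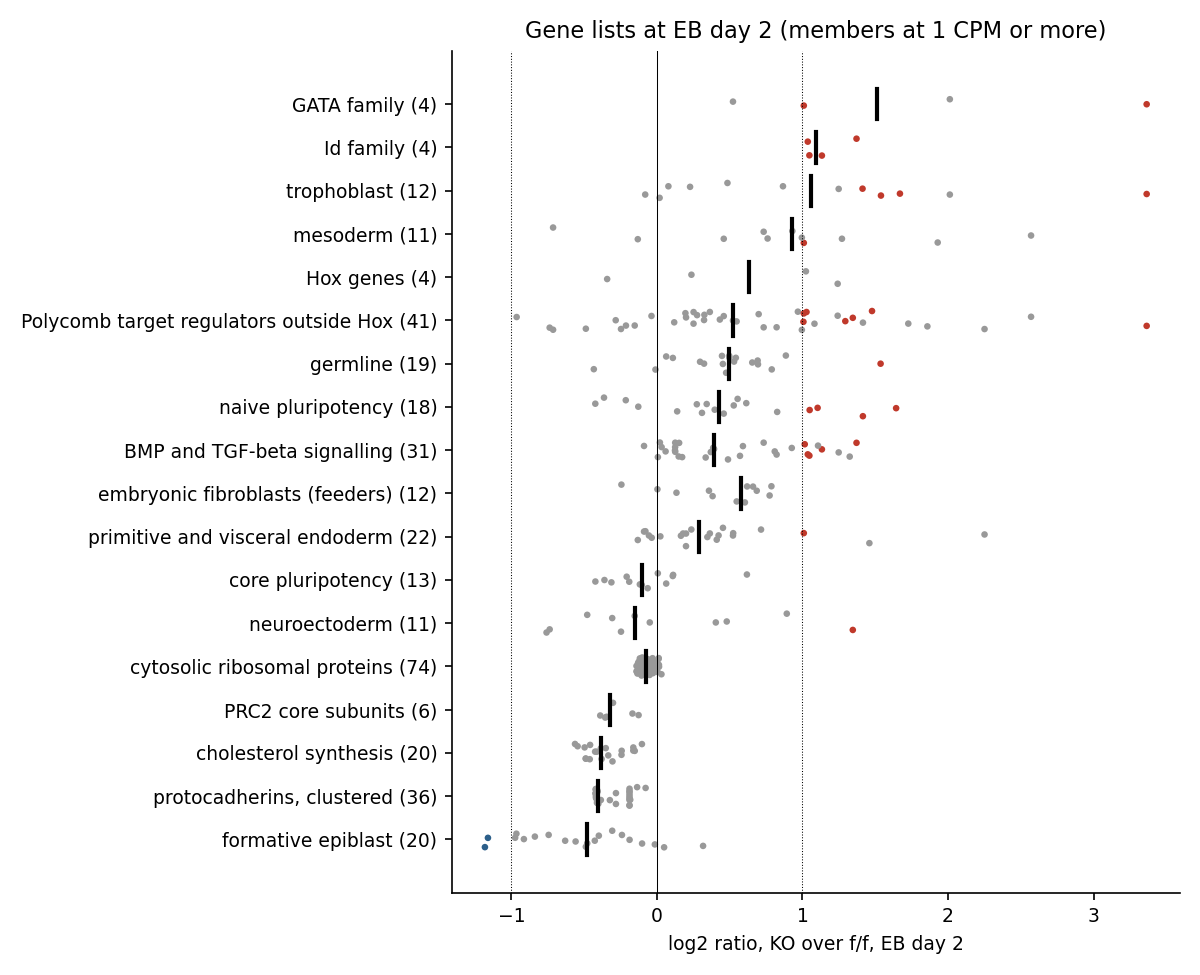
Log2 ratio of KO over f/f at day 2 for each list member at 1 CPM or more, with the number of such members in parentheses and the list median as a black bar. Red points were called higher and blue points lower, grey points were not called, and dotted lines mark 2-fold. Medians run from 1.51 in the GATA family to -0.48 in the formative epiblast list.

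Other Polycomb genes were examined because Sfmbt2 is one of them. Phf19, a PRC2 accessory subunit that recruits the complex to chromatin, had 23.1 and 21.0 CPM in KO libraries, against 8.45 and 9.15 CPM in f/f libraries (1.34). It was the called member of 6 accessory genes, whose median was 0.13. Bmi1, a PRC1 ring-finger partner, had 39.5 and 39.3 CPM in KO libraries, against 18.1 and 16.9 CPM in f/f libraries (1.16). With Sfmbt2 it was called among 23 genes of PRC1 and related complexes, whose median was 0.08, with 15 above and 8 below f/f. Of all genes 1.8% were called higher. Phc1, the most expressed of them, had 585 and 579 CPM in KO libraries, against 824 and 823 CPM in f/f libraries. Summed, the 23 genes came to 2158 and 2169 CPM in KO libraries, against 2416 and 2398 CPM in f/f libraries. Polycomb genes as a whole did not differ in one direction, with the core of PRC2 and Phc1 lower and Phf19, Bmi1 and Sfmbt2 higher.

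Imprinted genes differed in few members. Among 10 genes whose imprint is known to rest on the mark of PRC2, Sfmbt2 was called higher and 5 were below f/f, with a median of 0.14. Among 41 classically imprinted genes at 1 CPM or more, 20 were above and 21 below f/f, with a median of -0.00 (0.06 with scaling by library totals). Plagl1 and H19 were called higher, where 1.8% of all genes were. H19, a maternally expressed noncoding RNA, had 64.1 and 65.1 CPM in KO libraries, against 29.6 and 28.7 CPM in f/f libraries (1.14). The counts do not separate the parental alleles.

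Among signalling genes, those of BMP and TGF-beta were nearly all above f/f. Of 31 genes at 1 CPM or more, 30 were above f/f, 5 were called higher and none lower, with a median of 0.39. The shares over all genes were 47.2% above f/f and 1.8% called higher. All 4 Id genes, targets of BMP that block bHLH transcription factors, were called. Id2 had 24.0 and 23.9 CPM in KO libraries, against 9.42 and 8.93 CPM in f/f libraries (1.37). Id4 had 11.3 and 13.5 CPM in KO libraries, against 5.28 and 5.85 CPM in f/f libraries (1.13). Id3 had 37.8 and 33.4 CPM in KO libraries, against 16.7 and 18.2 CPM in f/f libraries (1.05). All KO libraries exceeded all f/f libraries for each of them, which the call by size on the same libraries favoured. Id1 had 34.9 and 35.02 CPM in KO libraries, against 17.5 and 16.3 CPM in f/f libraries (1.04). Id3 was below 2-fold without the first libraries (0.86), and Id1 without the second ones (0.99). The fifth called gene was Fstl3, a secreted activin antagonist, at 1.02, which was at 0.95 without the second libraries and 0.98 with a prior count of 5.

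Among Nodal genes Lefty2, a secreted Nodal inhibitor that Nodal itself induces, had 445 and 441 CPM in KO libraries, against 166 and 160 CPM in f/f libraries, a log2 ratio of 1.44. It was the called member of 13, whose median was 0.22. In the Notch pathway the modifier gene Lfng had 8.73 and 5.19 CPM in KO libraries, against 2.19 and 2.55 CPM in f/f libraries (1.59), and without the first libraries it was at 0.96. The receptor gene Notch4 had 13.2 and 12.3 CPM in KO libraries, against 5.93 and 4.15 CPM in f/f libraries (1.30). The ligand gene Dll1 went the other way, with 12.2 and 13.7 CPM in KO libraries, against 25.1 and 28.0 CPM in f/f libraries (-1.03), and it was at -0.96 with scaling by library totals. The Notch list had a median of 0.27 over 20 genes, with 2 called higher and 1 lower. Shares over all genes were 1.8% called higher and 0.164% called lower. WNT genes had none called and a median of 0.33 over 36 genes. FGF and ERK feedback genes had a median of 0.08 with the ligand gene Fgf17 called at 1.06, although it was at 0.71 without the first libraries. Retinoic acid genes had a median of 0.08 over 14 genes, with Stra8 called.

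Guidance molecules contributed called genes on both sides. Of 40 ephrin, Eph, semaphorin and related genes at 1 CPM or more, 5 were called higher and Sema6a lower, with a median of 0.25. Calls over all genes were 1.8% higher and 0.164% lower. The ephrin gene Efnb1 had 21.7 and 21.3 CPM in KO libraries, against 6.66 and 6.27 CPM in f/f libraries, a log2 ratio of 1.71 (1.45 to 2.01). Efnb3 had 7.501 and 7.57 CPM in KO libraries, against 2.52 and 2.23 CPM in f/f libraries (1.62). The receptor gene Ephb2, whose protein binds ephrins of this class, had 28.9 and 26.9 CPM in KO libraries, against 13.9 and 12.9 CPM in f/f libraries (1.06), but was at 0.99 without the first KO library. Ligands and a receptor of the same class were thus higher in the same sample. Efna1 (1.36), which is under 5 CPM without the first KO library, and the Robo ligand gene Slit2 (1.18) were the others.

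Matrix genes were above f/f in small steps. Of 42 extracellular matrix genes 32 were above f/f with a median of 0.47, and the proteoglycan gene Vcan was called at 1.01, but was at 0.96 without the second libraries. Collagen genes had a median of 0.50 over 28 genes. Called higher were 3, Col13a1, Col9a2 (1.31) and Col5a3 (1.19), against 1.8% of all genes. Col5a3 was at 0.94 without the second libraries. Among 13 YAP-responsive genes Cyr61, a matricellular gene, had 43.9 and 39.6 CPM in KO libraries, against 15.5 and 17.4 CPM in f/f libraries (1.36), Nt5e was lower, and the median was 0.28. Of 13 immediate early genes Fosl2 (1.70) and Jun (1.16) were called, with a median of 0.17.

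Some broad gene sets differed little per gene but nearly all in one direction. All 20 cholesterol synthesis genes were below f/f, with a median of -0.38 and a range of -0.56 to -0.10, and none was called. All 36 clustered protocadherin genes at 1 CPM or more were below f/f, with a median of -0.41 and none called, but genes of these clusters share exons, so their members are not separate measurements. Of 74 cytosolic ribosomal protein genes 67 were below f/f (median -0.08), and of 25 proteasome genes 21 (median -0.09). Cholesterol genes had medians of -0.33 in 3i and -0.27 at day 1, ribosomal genes -0.22 and -0.21, and proteasome genes -0.19 and -0.16. Protocadherin medians there were -0.03 and -0.05. At day 2 the cholesterol genes summed to 3014 CPM in KO, 3339 in KO+WT, 3288 in KO+N-KR and 3937 in f/f. In the same order the ribosomal genes had 67672, 66288, 65670 and 71387 CPM, and the proteasome genes 4663, 4812, 5115 and 4923 CPM. Scaling by library totals moved the median of all genes by 0.07, to 0.05. It turned the sign of the medians of replication-dependent histones (-0.03), SCF subunits (-0.02) and p53 targets (-0.06). The medians of housekeeping genes (-0.12), hypoxia and glycolysis genes (0.02) and solute carriers (0.02 over 220 genes) were also small. Of 175 solute carriers at 5 CPM or more, 6 were called higher, where 1.8% of all genes were. CDK inhibitors (median 0.27 over 6), voltage-gated potassium and calcium channels (0.16 over 36) and 2-cell-like genes (0.14 over 8) had no called member.

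Markers of other cells that the samples could hold moved with these groups. Fibroblast markers, relevant because feeder cells were used, had 12 of 18 genes at 1 CPM or more, 11 of them above f/f with a median of 0.58 and none called. Their sum over all 18 was 105 and 104 CPM in the KO libraries, against 76.3 and 75.5 CPM in the f/f libraries, and the collagen gene Col1a1 stood at 18.5 CPM in KO and 12.1 CPM in f/f. Their part in the matrix and collagen differences was not tested. Parietal endoderm markers had a median of 0.53 over 10 genes, and came to 749 and 751 CPM in KO libraries, against 639 and 624 CPM in f/f libraries. Muscle markers had a median of 0.44 over 6 genes, and neuron markers 0.74 over 6 genes, with the growth cone gene Gap43 called at 1.21 (0.95 without the second libraries). Endothelial and blood markers came to 132 and 140 CPM in KO libraries, against 145 and 143 CPM in f/f libraries, with the receptor gene Flt1 called at 1.01, but at 0.96 without the second libraries and 0.99 with a prior count of 5. The defining pluripotency genes of the labelled cells were present in all 4 libraries: Pou5f1 had 784 and 759 CPM in KO libraries, against 850 and 825 CPM in f/f libraries, and Sox2 532 and 542 CPM in KO libraries, against 518 and 507 CPM in f/f libraries.

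The 198 genes were then followed in the earlier states, where the selection had not used the data. In 3i, 142 of them (71.7%) were above f/f in KO, and at day 1, 177 (89.4%), where 49.9% and 47.1% of all 10985 genes were. By size, 5 were already called higher in 3i and 22 at day 1. In 3i 1 was called lower, and at day 1 none was. The other 173 (87.4%) were called in neither state. The median log2 ratio of the 198 was 0.32 in 3i, 0.57 at day 1 and 1.25 at day 2, of which the last is fixed by the selection. Of the 18 lower genes, 14 were below f/f in 3i and 17 at day 1, 6 of them by size at day 1 and none in 3i. Most genes of both sets thus had their day 2 direction already at day 1.

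Over time, the median level of the 198 was 12.0, 7.15 and 10.4 CPM in KO in 3i, at day 1 and at day 2, against 9.84, 5.07 and 4.10 CPM in f/f. In KO, 116 of the 198 (58.6%) were within 2-fold of their 3i level at day 2, and 46 (23.2%) at least 2-fold above it, compared with 91.0% and 6.0% of all 10985 genes. In f/f, 93 of the 198 (47%) were at least 2-fold lower at day 2 than in 3i, compared with 4.66% of those genes. The KO and f/f values at day 2 chose the genes, so these shares are descriptions. The 18 lower genes had medians of 1.62, 4.70 and 4.93 CPM in KO over the 3 states, against 3.72, 9.14 and 10.7 CPM in f/f. In each genotype 14 were at least 2-fold above 3i at day 2, compared with 6.0% of all 10985 genes in KO and 6.24% in f/f. Most of these 18 genes increased from 3i in both genotypes. Their high day 2 level in f/f and their lower one in KO are favoured by the selection.

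Single genes took different courses. Sfmbt2 was already apart in 3i, at 36.1 and 36.2 CPM in KO libraries, against 19.9 and 20.9 CPM in f/f libraries. At day 1 it had 51.4 and 52.5 CPM in KO libraries, against 16.3 and 15.0 CPM in f/f libraries. It thus increased in KO at each state while it was level or lower in f/f. Tfap2c was high in 3i (150 and 147 CPM in KO libraries, against 90.4 and 90.1 CPM in f/f libraries) and low in both at day 1 (27.7 and 28.5 CPM in KO libraries, against 13.3 and 13.4 CPM in f/f libraries). By day 2 it was slightly above its 3i level in KO and at 52.1 and 52.3 CPM in f/f libraries. Lrrc15 had the same course in KO, with 19.0 and 17.8 CPM in 3i, 3.33 and 1.96 CPM at day 1 and 16.2 and 14.9 CPM at day 2. Dnmt3b started alike, at 73.3 and 72.7 CPM in KO libraries in 3i, against 68.4 and 68.8 CPM in f/f libraries. At day 1 it had 630 and 634 CPM in KO libraries, against 719 and 727 CPM in f/f libraries. From day 1 to day 2 it declined in KO, whereas in f/f it went on increasing. Gata3 was at 0.956 and 1.82 CPM in KO libraries in 3i, against 1.45 and 0.723 CPM in f/f libraries, where the groups overlap, and the groups were apart at day 2.

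**Figure D4:**
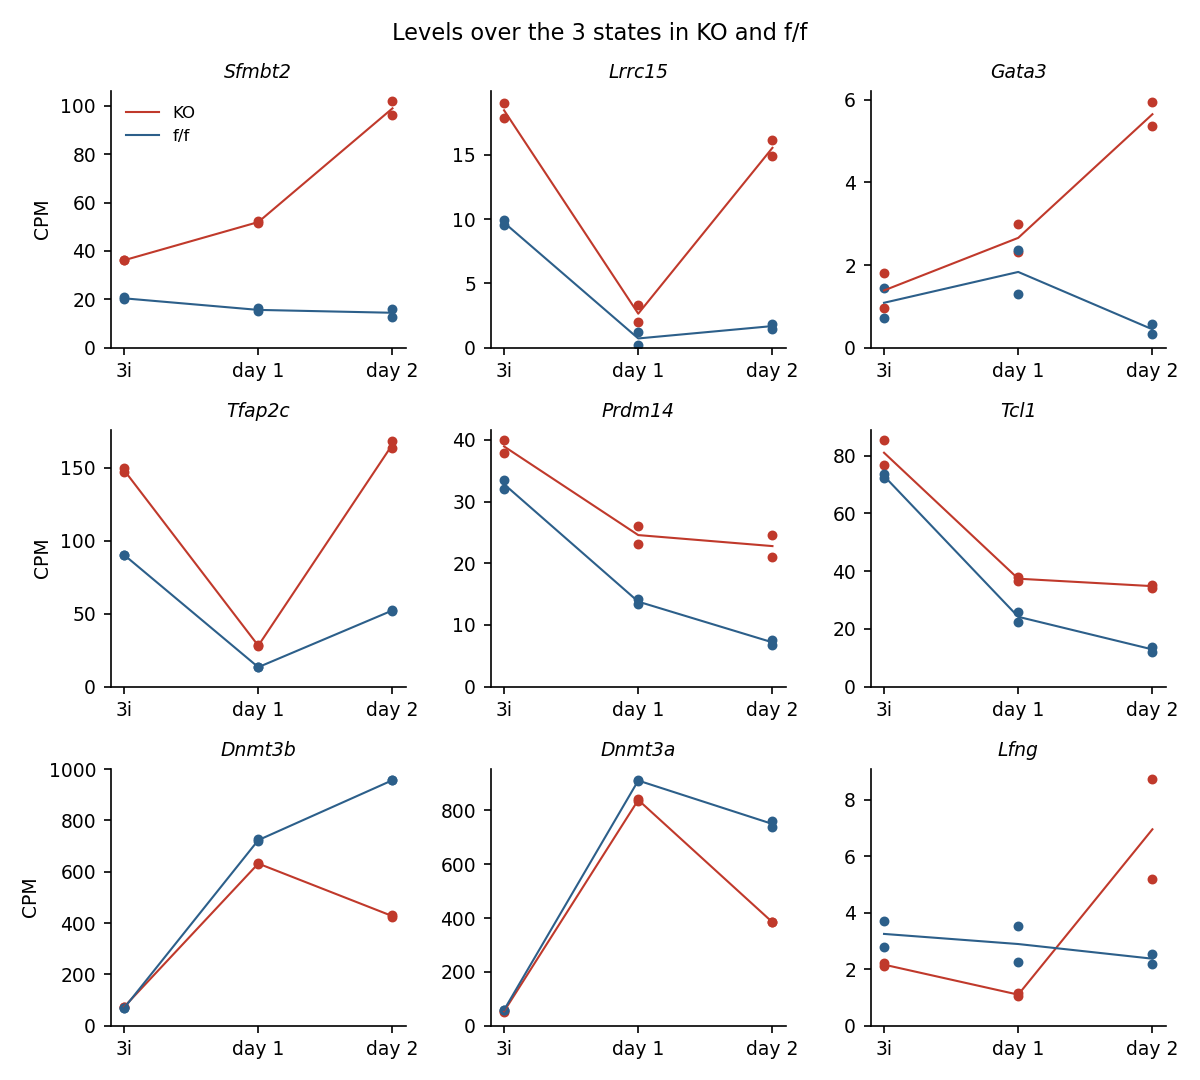
CPM in each library (points) and the mean of the 2 libraries (lines) for 9 genes in 3i and at days 1 and 2, KO in red and f/f in blue. Sfmbt2 separates from 3i onwards, while Dnmt3b and Dnmt3a are close in 3i and at day 1 and lower in KO at day 2.

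The change of the KO difference between states was tested between libraries with edgeR's interaction contrast, which again compares RNA samples. Against 3i, 1869 of 14619 genes (12.8%) had a higher and 1980 (13.5%) a lower ratio at day 2. Against day 1, 917 (6.27%) had a higher and 1340 (9.17%) a lower ratio. Among the genes described, the day 2 log2 ratio of Sfmbt2 exceeded that in 3i by 1.94 (edgeR quasi-likelihood, adjusted p = 1.62e-23) and that at day 1 by 1.02 (adjusted p = 1.31e-09). The ratio of Dnmt3b was lower than in 3i by a difference of -1.24 and than at day 1 by -0.98. Lefty2, by contrast, differed from 3i by 0.68 but from day 1 by -0.06 (edgeR quasi-likelihood, adjusted p = 0.506), as its ratio was already 1.49 at day 1. Eed had the same ratio in all states, with differences of -0.00 from 3i and -0.02 from day 1. Id2 had its highest ratio in 3i, at 2.12, so its day 2 value was lower by a difference of -0.73.

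Levels in the rescue lines at day 2 are given beside these, without a comparison of their ratios, because they share the f/f sample. The 198 genes had a median of 10.4 CPM in KO, 5.49 in KO+WT, 5.18 in KO+N-KR and 4.10 in f/f. The 18 lower genes had medians of 4.93 CPM in KO, 12.3 in KO+WT, 11.1 in KO+N-KR and 10.7 in f/f. Sfmbt2 had 96.1 and 102 CPM in KO, 14.9 and 14.1 in KO+WT, 13.5 and 11.9 in KO+N-KR and 16.0 and 12.9 in f/f. Tfap2c had 168 and 163 CPM in KO, 66.7 and 68.8 in KO+WT, 60.5 and 51.7 in KO+N-KR and 52.1 and 52.3 in f/f. For both genes the KO libraries lay above all 6 others. The KO and f/f values at day 2 chose the genes, so the distance between KO and f/f here was favoured by the selection. How many of all genes have KO outside the other 6 libraries was not counted. Nrk had 17.8 and 18.2 CPM in KO, 7.02 and 6.87 in KO+WT, 5.69 and 6.66 in KO+N-KR and 3.65 and 3.30 in f/f, so both rescue lines lay between. Sema6a had 11.8 and 11.6 CPM in KO, 54.5 and 48.6 in KO+WT, 61.0 and 59.9 in KO+N-KR and 34.4 and 36.8 in f/f, so both rescue lines lay above f/f. Eed had 102 and 102 CPM in KO, 189 and 184 in KO+WT, 121 and 121 in KO+N-KR and 131 and 130 in f/f. Tamoxifen was given to KO and to both rescue lines.

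**Figure D5:**
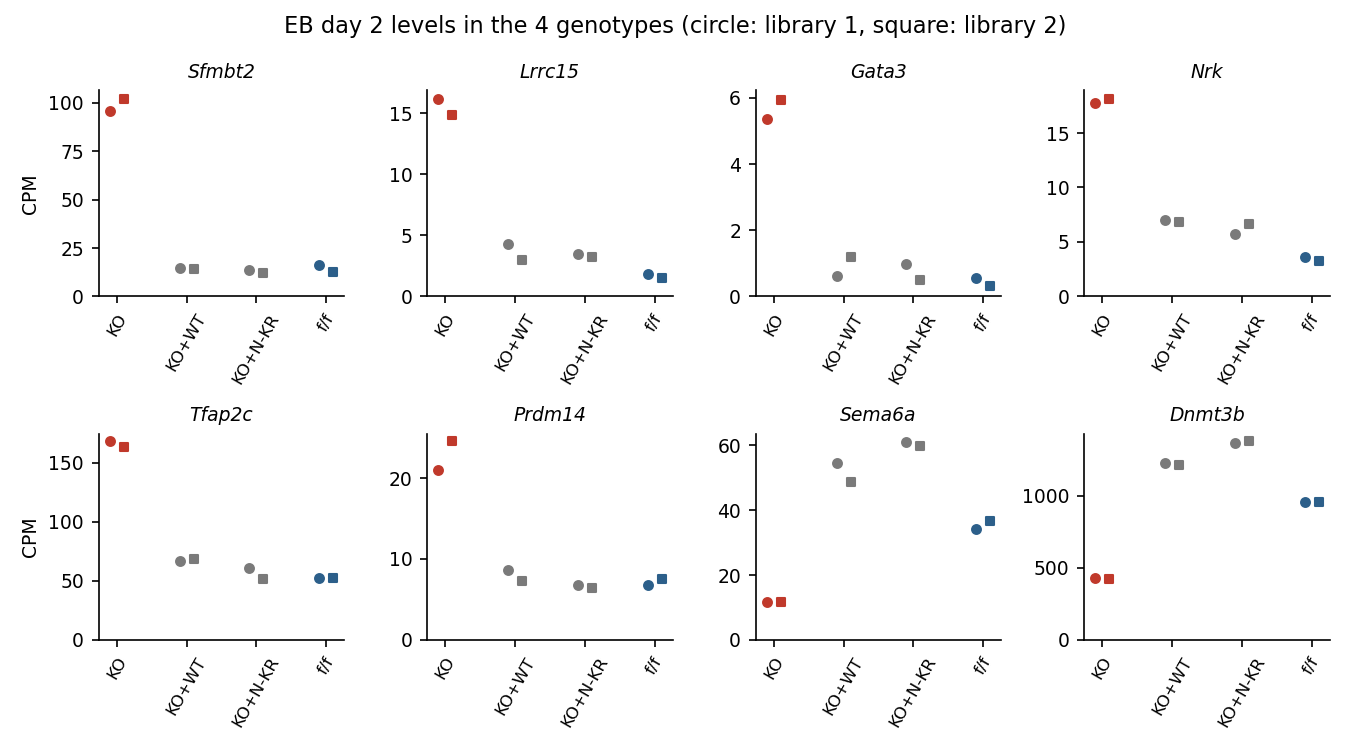
CPM at day 2 in each library of KO, KO+WT, KO+N-KR and f/f for 8 genes, with circles for library 1 and squares for library 2. In each gene drawn the KO libraries lie outside the range of the other 6 libraries. The genes were chosen with their KO and f/f values at day 2 known.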

How the data were processed

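Poly(A) RNA was sequenced in 24 libraries, and the authors deposited raw read counts for 23284 gene symbols. Per the submitters' processing notes, STAR 2.5.2b and DESeq2 were used with build mm9. The counting tool, its strand setting and its annotation were not given in the sources used here; genes that overlap or run antisense may share reads. Columns were matched to libraries by name and 6 were not used. Groups came from the titles, because the genotype field names both rescue lines as the knockout alone.

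Libraries were summed per group and scaled by TMM over the 12 sums. Ratios had a prior count of 2, and intervals are exact binomial (Clopper-Pearson). List medians use genes with a mean of at least 1 CPM over KO and f/f at day 2. With 1 sample per genotype no p-value between genotypes was computed. edgeR 4.0.16 (filterByExpr, TMM, quasi-likelihood F-test, Benjamini-Hochberg, 12 residual degrees of freedom, R 4.3.3) compared libraries, with DESeq2 1.42.0 as the alternative, and was tested on simulated counts.

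The comparison, the 60 gene lists and the tests were chosen with earlier results of these data known. Genes named by rule were the 15 highest and 10 lowest called, up to 6 called and the 3 most expressed members of a list, Eed, the other PRC2 core genes and Skp1a. Other genes were named after their values were seen, and some called genes are not reported here. No genome of build mm9 was used; promoter windows are from RefSeq.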

Additional observations from a re-analysis of the deposited data

Results flagged for a closer look

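Only called genes named by rule were searched for reversals. In 6 of them the KO ratio at day 2 and that in 3i lay on opposite sides of 0. Each ratio had a counting interval that leaves 0 out. Over all 198 higher genes, 1 was called lower by size in 3i, and it is not among these 6. Foxn4, a forkhead gene, had a log2 ratio of KO over f/f of 1.27 at day 2 and -0.51 in 3i. Gap43 had 1.21 at day 2 and -0.58 in 3i. Gjb5 had 2.28 at day 2 and -0.18 in 3i. Krt19 had 1.54 at day 2 and -0.43 in 3i. Slc30a2, a zinc transporter gene, had 1.27 at day 2 and -0.24 in 3i. Lfng had 1.59 at day 2, -0.58 in 3i and -1.34 at day 1. These differences between states were not tested between genotypes, which have 1 sample each. Foxn4 at day 2 was at 0.62 without the first libraries, with 6.28 and 4.86 CPM in KO libraries and 1.71 and 3.08 CPM in f/f libraries.

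The number of genes whose KO ratio at day 2 differed from another state between libraries was 3849 against 3i and 2257 against day 1 (edgeR quasi-likelihood, Benjamini-Hochberg adjustment).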

How the results depend on the processing

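The main counts of 198 higher and 18 lower genes were 241 and 16 with library totals alone, 197 and 18 with DESeq2 size factors, 205 and 19 with a prior count of 0.5, and 189 and 18 with a prior count of 5. A minimum of 10 CPM gave 105 and 10, and a minimum of 1 CPM gave 560 and 38. Asking for 2-fold between the nearest libraries, which was chosen after seeing the data, gave 122 and 10. Leaving out libraries gave 200 to 216 higher and 23 to 27 lower genes, of which 162 to 182 and 13 to 18 were among the 198 and the 18. No named gene with a call changed direction in these settings. Between libraries, edgeR's 5721 calls were 5611 with DESeq2 size factors, 5552 with no filter, 5601 from the 4 libraries alone, and 4242 to 4872 with a library left out, and DESeq2's Wald test gave 2986. The changes from 3i (3849) and day 1 (2257) gave 1652 and 791 with DESeq2, 2978 to 3438 and 1565 to 1923 with a library left out, 3841 and 2180 with DESeq2 size factors, and 3657 and 2149 with no filter. The causes were not tested.

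Same-numbered KO and f/f libraries did not deviate together (r = 0.0235), so no common shift by number was seen. By library name, the first libraries of all groups form a series and the second libraries another. A replicate block gave 5751, 3913 and 2319 calls for day 2, the change from 3i and the change from day 1. Of the named genes 34 lost their call at 10 CPM and up to 9 when libraries were left out. Depth limits the ratios of genes under 10 CPM, as in the interval of Gata3 (2.68 to 4.70). The list medians of DNA methylation enzymes, classically imprinted genes, p53 targets, SCF subunits, forkhead, Sox and Pax genes, histones and cadherins changed sign with library totals. Those of FGF, retinoic acid, 2-cell-like, hypoxia and LIM homeobox genes changed sign when some library was left out.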
